A study of Mus musculus with 3 samples.

Results

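Integrin subunit RNA was followed in lung endothelial cells (ECs) from 3 single-cell libraries. The 10 genes described are 7 alpha subunits (Itga1, Itga3, Itga5, Itga6, Itga8, Itga9 and Itgav) and 3 beta subunits (Itgb1, Itgb3 and Itgb5), of 32285 genes in the count matrices and of 26 integrin subunit genes. They were chosen as a named list, and all 10 are described in every library. The libraries came from WT C57BL/6 mice. One library (control) came from mice injected with PBS and killed after 6 h, and the others came from mice killed 6 h or 30 h after 200000 B16-F10 cells in 100 µl had been injected into the tail vein. B16-F10 cells are a mouse melanoma line that seeds the lung from the blood. Cells with surface Pecam1 and without Ptprc were sorted from collagenase-digested lungs, and dye-labelled melanoma cells were added to the 6 h library. Each library pooled 2 mice per the labels, but the study's methods give another number and this was not settled. With 1 library per group, no difference between libraries has a replicate check, and no p-value is given for one. No PBS library at 30 h was analysed here, so time and treatment cannot be told apart in the 30 h library.

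Integrins are cell surface receptors, each made of 1 alpha and 1 beta subunit, that bind the extracellular matrix on the outside and the actin cytoskeleton on the inside through talin and kindlin. The alpha subunit largely sets the ligand: with Itgb1, Itga1 binds collagens, Itga3 and Itga6 bind laminins, Itga5 binds fibronectin, Itga8 binds nephronectin and Itga9 binds tenascin and Vcam1. Itgav pairs with several beta subunits, among them Itgb3 and Itgb5, and binds vitronectin and other proteins with an RGD motif. In vessels, integrins hold ECs to the basement membrane and take part in vessel growth and barrier function.

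Endothelial barcodes were those with 1000 to 5000 detected genes, under 20% mitochondrial UMIs, at least 2 UMIs of the endothelial genes Pecam1 and Cdh5 together, and under 5 UMIs of the platelet genes Pf4 and Ppbp together. A UMI marks 1 captured RNA molecule. The gate kept 10795 control barcodes, 10061 at 6 h and 8797 at 30 h, with medians of 7759, 8001 and 8667 UMIs. All 7 general endothelial markers were detected, and their summed level lay between 7166 and 8511 CPM (UMIs per 1000000 UMIs of the same sum) in the 3 libraries. Marker genes, none of them an integrin, placed barcodes in general capillary (gCap-like, 4700 to 6516 per library), aerocyte capillary (aCap-like, 835 to 1034), artery-like (118 to 197), vein-like (297 to 402) and lymphatic (LEC-like, 46 to 55) classes. Between 24.6% and 28.6% fell in no class. The gate required markers of each class, so the marker sums describe the classes and do not test them. The 8 aCap markers summed to 5513 to 7810 CPM in aCap-like cells against 226 to 277 CPM in gCap-like cells. The lymphatic list summed to 30849 to 40275 CPM in LEC-like cells against at most 62.9 CPM in the other classes. Other lists were less far apart. The gCap list summed to 7548 to 8431 CPM in gCap-like, 4339 to 5410 CPM in vein-like and 3638 to 4002 CPM in artery-like cells. The libraries shared 18 to 35 endothelial barcode sequences per pair. Of the endothelial barcodes, 42.0% to 47.1% held a UMI of a pericyte, smooth muscle or fibroblast marker, and 7 at 6 h held at least 4 melanoma markers. The 15 immediate early genes, which respond fast to stress and digestion, summed to 10460 CPM in the control, 14152 CPM at 6 h and 7767 CPM at 30 h.

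Over all endothelial barcodes Itga5 was higher at 6 h, Itga6 and Itgb1 were higher at 30 h, and Itgav was lower at 30 h. Itgb5 was lower at 6 h and higher at 30 h. A gene was counted as higher where it lay at least 25% above the other library and as lower where it lay at least 20% below it, which is the same fold in each direction. At 6 h, of the 8 members with a mean of at least 5 CPM, 1 was higher than the control (Itga5) and 1 lower (Itgb5), where 7.21% and 6.64% of all 10164 genes with that mean were. With mesenchymal-positive barcodes left out, Itgb5 did not reach the limit (log2 ratio -0.31) and only Itga5 (0.39) was counted. At 30 h, 3 were higher than the control (Itga6, Itgb1 and Itgb5) and 1 lower (Itgav), beside 13.2% and 20.3% of all genes. From 6 h to 30 h, Itga6 and Itgb5 were higher and Itga5 and Itgav lower, 2 members each, beside 13.6% and 17.9% of all genes. Itga8 and Itgb3 were under 5 CPM on average and are not in these counts. The median log2 ratio of the 8 members was -0.11 at 6 h and 0.12 at 30 h against the control, and that of all genes counted was -0.01 and -0.07. Intervals below are exact 95% intervals that cover counting error only, and because 3′ ends were counted, levels are compared within a gene and not between genes.

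**Figure D1:**
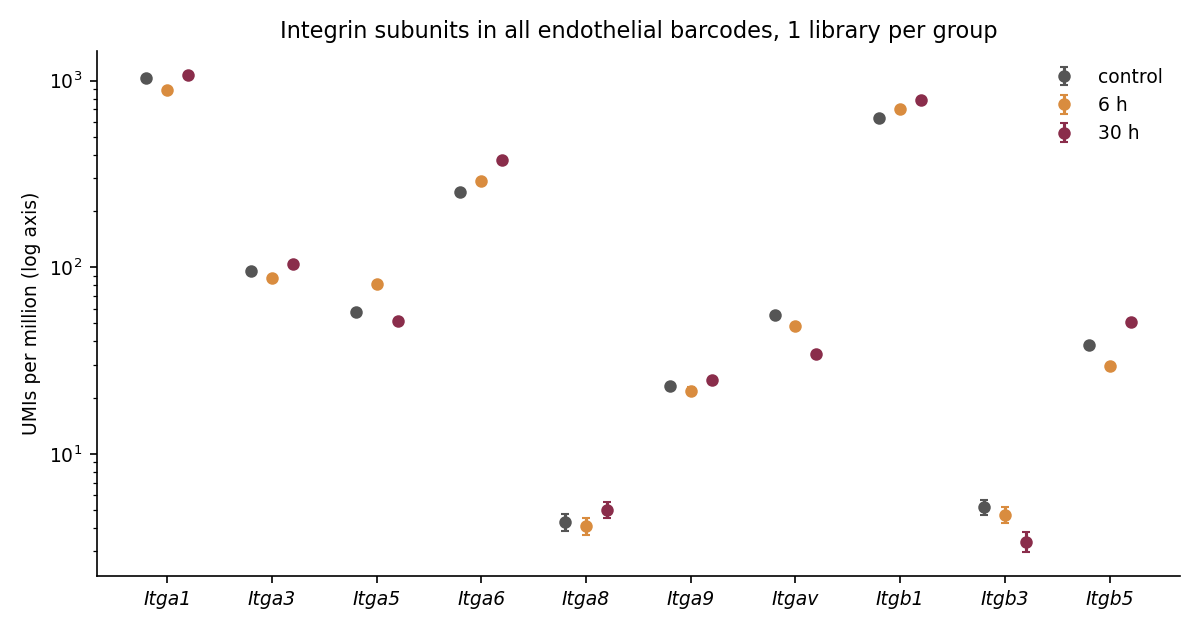
Level of each integrin subunit (x axis) in CPM on a log axis (y axis) over all endothelial barcodes of the control, 6 h and 30 h libraries, 1 point per library, with exact 95% counting intervals that are mostly smaller than the points. Itga5 is highest at 6 h, Itga6 and Itgb1 are highest at 30 h, and Itgav is lowest at 30 h. Itgb5 is lowest at 6 h and highest at 30 h.

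Within gCap-like cells, where the mix of the gated classes does not enter, 8 members again had a mean of at least 5 CPM. The study describes a reactive capillary cluster that carried gCap markers and grew in number at 6 h. The gate did not set this cluster apart, so its share can enter the gCap-like ratios, and its part was not tested. By the same limits, 1 member was higher than the control at 6 h (Itga5) and 0 lower, beside 8.08% and 7.69% of the 10020 genes counted. At 30 h, 2 were higher (Itga6 and Itgb1) and 1 lower (Itgav), beside 13.3% and 20.4%. Itgb5, counted in the whole endothelium, was thus within these limits in gCap-like cells at both times, although at 6 h it lay past them with barcodes of 300 genes or more (log2 ratio -0.40) or with 1 class marker fewer (-0.33).

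The classes were compared with gCap-like cells over the 3 libraries with edgeR's quasi-likelihood test, with the library as a block and Benjamini-Hochberg adjustment over 12172 genes. In aCap-like cells 2 of the 10 members were higher at an adjusted p under 0.05 and 6 lower, beside 26.3% and 27.2% of all genes tested. In artery-like cells 1 was higher and 2 lower, beside 10.1% in each direction, and with barcodes of 300 genes or more Itga8 and Itgb5 were called higher as well. In vein-like cells 3 were higher and 4 lower, beside 15.5% and 14.5%, but without the control library only 4 of these 7 were called (Itga9, Itgb3 and Itga5 higher, Itga1 lower). In LEC-like cells 4 were higher and 5 lower, beside 18.3% and 20.3%. The 3 libraries stand in as replicates of a class although they differ in treatment, and means ± SD of log2 ratios below are over these 3 libraries.

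**Figure D2:**
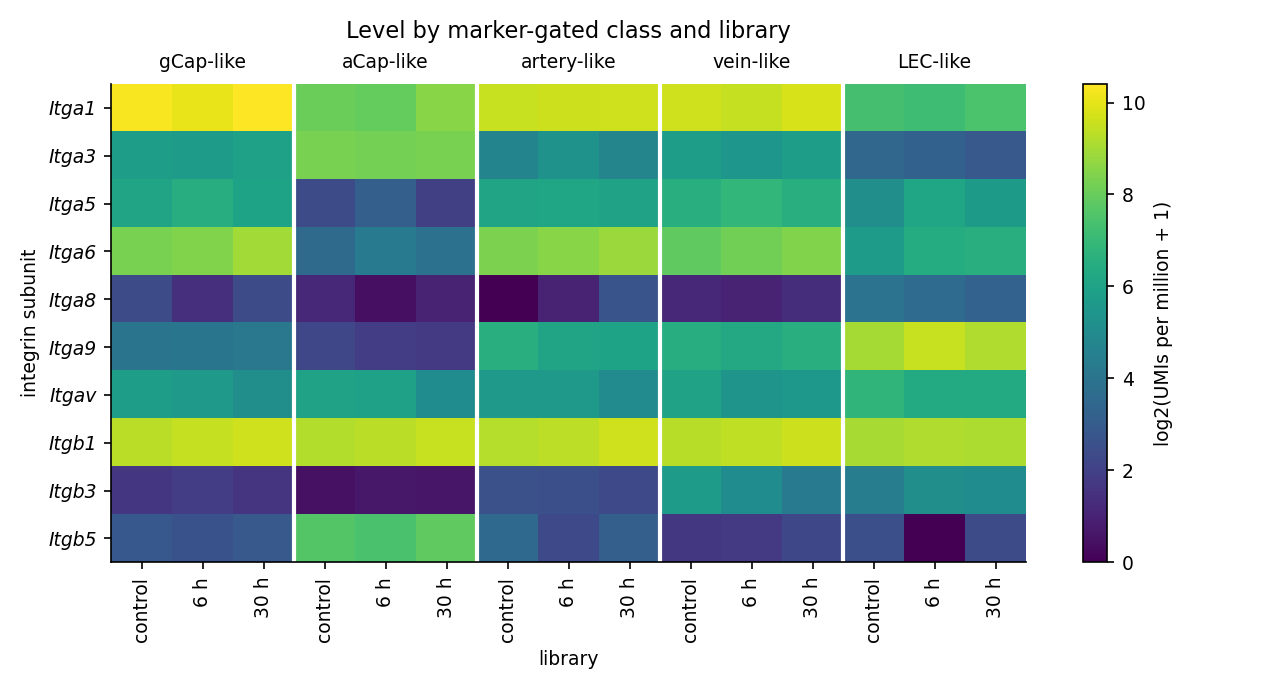
Level of each integrin subunit (rows) as log2(CPM + 1), shown by colour, in the 5 marker-gated EC classes and the 3 libraries (columns). Itgb5 and Itga3 are brightest in aCap-like cells, Itga9 in LEC-like cells, and Itgb1 is bright in every class.

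**Figure D3:**
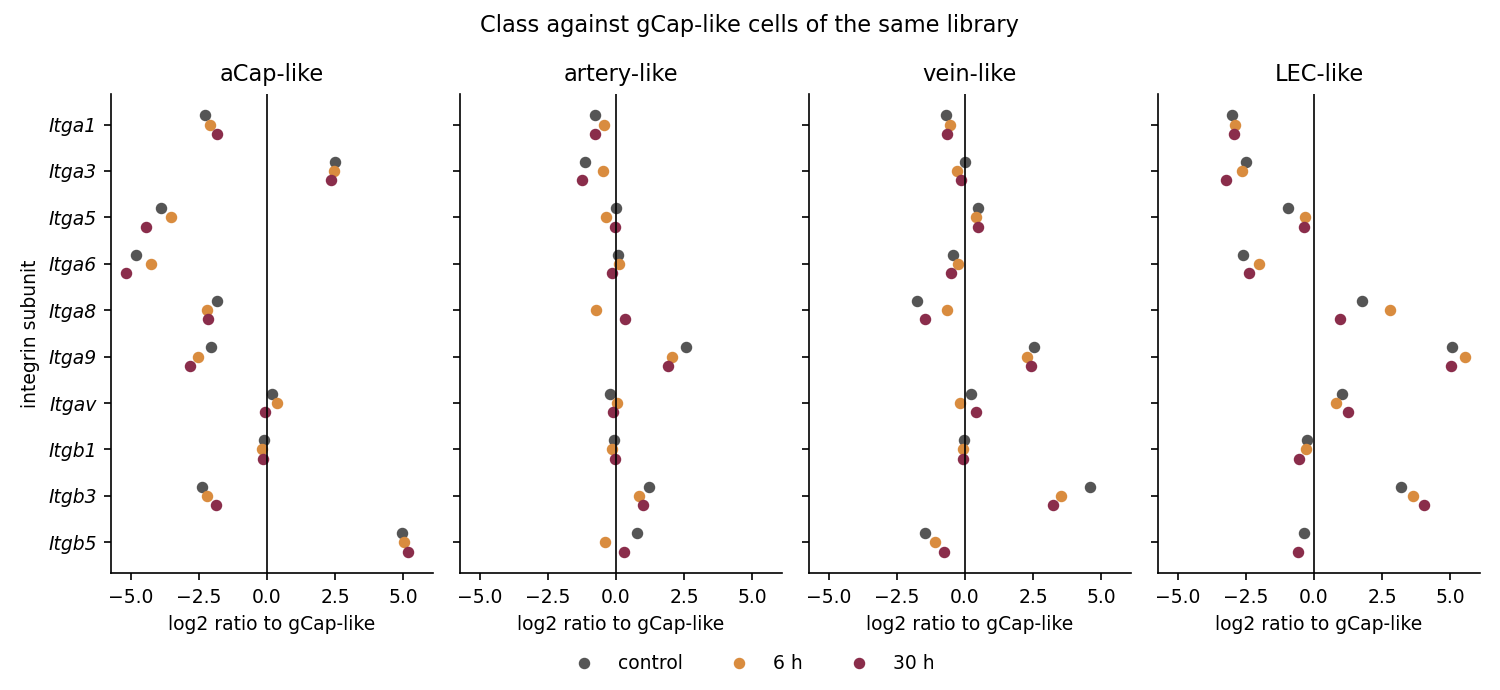
log2 ratio of each integrin subunit in 4 EC classes to gCap-like cells of the same library (x axis), 1 point per library and subunit, with no point where either sum held no UMI. In aCap-like cells Itgb5 and Itga3 lie right of 0 in all 3 libraries and Itga5, Itga6, Itga9, Itga1, Itga8 and Itgb3 left of it.

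Itga1, the alpha subunit of a collagen receptor (ENSMUSG00000042284, mm10 chr13:114953096-115101964, minus strand), was highest in gCap-like cells. There it measured 1270 CPM in the control, 1057 CPM at 6 h and 1351 CPM at 30 h. In aCap-like cells it measured 263, 247 and 376 CPM in the same order, so the classes did not overlap. The log2 ratio of aCap-like to gCap-like cells was -2.07 ± 0.21 (SD, n = 3 libraries, edgeR adjusted p = 1.94e-12). Itga1 was also lower in artery-like cells (740 to 801 CPM, -0.66 ± 0.18, adjusted p = 2.08e-05), in vein-like cells (718 to 864 CPM, -0.63 ± 0.06, adjusted p = 8.08e-05) and in LEC-like cells (141 to 176 CPM, -2.95 ± 0.05, adjusted p = 2.21e-13). Artery-like and vein-like values overlapped each other.

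Over time, the lowest Itga1 value in gCap-like cells was at 6 h, with a log2 ratio to the control of -0.27 (-0.28 to -0.25). At 30 h the ratio was 0.09 (0.07 to 0.11) in gCap-like cells but 0.51 (0.44 to 0.58) in aCap-like cells, where 30 h was the highest library. The share of aCap-like barcodes with an Itga1 UMI, after each barcode had been thinned to 2000 UMIs, was 35.4% in the control, 36.5% at 6 h and 49.8% at 30 h beside 19.6% to 40.8% of LEC-like barcodes. At that depth Itga1 and Itgb1 were found together in 60.6%, 58.8% and 67.2% of gCap-like barcodes. In aCap-like barcodes this was 23.8%, 26.8% and 37.0%. The difference in the 30 h ratio between the classes was not tested. Itga1 overlaps the gene Pelo and the model Gm49395 on its own strand, so the assignment of reads between them is uncertain.

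Itga3, a laminin receptor subunit (ENSMUSG00000001507, chr11:95044474-95076801, minus strand), was highest in aCap-like cells, at 313 CPM in the control, 297 CPM at 6 h and 313 CPM at 30 h. In gCap-like cells it was 54.7, 53.5 and 61.0 CPM. The classes did not overlap, and the log2 ratio was 2.45 ± 0.08 (n = 3 libraries, adjusted p = 5.50e-14). At 2000 UMIs, 43.6% to 46.2% of aCap-like barcodes held an Itga3 UMI, beside 2.17% to 4.08% of LEC-like barcodes. Before thinning, with depth unequal between classes, 888 of 995, 752 of 835 and 904 of 1034 aCap-like barcodes held one. Among gCap-like barcodes these were 2002 of 6516, 1960 of 6294 and 1652 of 4700. At equal depth (2000 UMIs), Itga3 and Itgb1 were found together in 7.53%, 7.24% and 8.62% of gCap-like barcodes. In aCap-like barcodes this was 31.1%, 30.7% and 32.1%. Artery-like cells had less Itga3 than gCap-like cells (24.5, 38.1 and 25.6 CPM, -0.97 ± 0.41, adjusted p = 3.06e-05), and LEC-like cells had the least (6.44 to 9.73 CPM, adjusted p = 2.92e-07), from 3 or 4 UMIs per library. Vein-like values (43.2 to 55.2 CPM) overlapped those of gCap-like cells and did not pass the test (adjusted p = 0.610).

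The log2 ratio of Itga3 to the control over all endothelial barcodes was -0.12 (-0.17 to -0.08) at 6 h and 0.13 (0.08 to 0.17) at 30 h. In aCap-like cells the ratio was -0.08 (-0.15 to 0.00) at 6 h, and at 30 h its interval was -0.07 to 0.07. In vein-like cells the 6 h ratio was -0.35 (-0.68 to -0.03), with an interval that held 0 without the platelet gate, and in artery-like cells it was 0.64 (-0.09 to 1.37).

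Itga6, the other laminin receptor subunit (ENSMUSG00000027111, chr2:71745616-71858416, plus strand), had the opposite class pattern to Itga3 in the capillaries. In gCap-like cells it measured 313 CPM in the control, 347 CPM at 6 h and 497 CPM at 30 h. In aCap-like cells it measured 11.1, 18.1 and 13.6 CPM, from 111, 154 and 153 UMIs. The log2 ratio of aCap-like to gCap-like cells was -4.75 ± 0.47 (n = 3 libraries, adjusted p = 9.49e-16), the most negative among the members and classes tested. The aCap-like values also lay below those of empty droplets (114 to 206 CPM). Artery-like cells (328, 374 and 452 CPM) overlapped gCap-like cells and did not differ by the test (adjusted p = 0.939). Vein-like cells (229, 289 and 345 CPM) lay below gCap-like cells of the same library in 3 of 3 libraries (-0.42 ± 0.14, adjusted p = 0.0138). This call was lost without the control library (adjusted p = 0.175) and without the 30 h library (adjusted p = 0.0544). LEC-like cells had 51.1 to 94.5 CPM (-2.35 ± 0.29, adjusted p = 4.85e-10).

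Itga6 had the largest positive log2 ratio to the control at 30 h of the 8 members counted in the whole endothelium, where that of Itgav was larger in size and negative. Over all endothelial barcodes it measured 252 CPM in the control, 291 CPM at 6 h and 375 CPM at 30 h. The log2 ratio at 30 h was 0.57 (0.55 to 0.60) over all endothelial barcodes, 0.67 (0.64 to 0.70) in gCap-like cells, 0.46 (0.29 to 0.64) in artery-like cells, 0.59 (0.47 to 0.72) in vein-like cells and 0.89 (0.11 to 1.71) in LEC-like cells. With doublets removed the LEC-like interval held 0 (-0.02 to 1.61). In aCap-like cells the interval held 0 at 30 h (0.29, -0.07 to 0.66) but not at 6 h (0.70, 0.34 to 1.07). At 2000 UMIs, 42.7% of control gCap-like barcodes, 45.2% at 6 h and 54.8% at 30 h held an Itga6 UMI, beside 2.22% to 2.92% of aCap-like barcodes. Itga6 was also higher in empty droplets at both times, and the part of free RNA in the result was not tested. Gm13663 and Gm13662 overlap Itga6 on the same strand, so reads in those overlaps are of uncertain origin.

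Itga5, the alpha subunit of the fibronectin receptor (ENSMUSG00000000555, chr15:103344286-103366763, minus strand), was the only one of the 8 counted members at least 25% above the control at 6 h. Over all endothelial barcodes it measured 57.6 CPM in the control, 81.0 CPM at 6 h and 51.6 CPM at 30 h. The log2 ratio at 6 h was 0.49 (0.44 to 0.55), and at 30 h it was -0.16 (-0.22 to -0.10). In gCap-like cells Itga5 measured 66.0, 88.8 and 63.8 CPM, with a log2 ratio at 6 h of 0.43 (0.36 to 0.49). The 6 h ratio was also above 0 by its interval in aCap-like cells (0.81, 0.24 to 1.40), vein-like cells (0.36, 0.14 to 0.57) and LEC-like cells (1.05, 0.05 to 2.11), although in LEC-like cells the interval held 0 with the barcode richest in Itga5 left out of each library (-0.15 to 2.12) and without the platelet gate (-0.0037 to 2.00), and with barcodes of 300 genes or more the ratio was 1.98 (1.36 to 2.63). In artery-like cells the interval held 0 (0.07, -0.41 to 0.55). The aCap-like ratio rested on 44 UMIs in the control and 66 at 6 h. Those sums (4.42 and 7.77 CPM) lay below empty droplets (33.1 and 38.9 CPM), and the part of free RNA was not tested. The share of gCap-like barcodes with an Itga5 UMI at 2000 UMIs was 12.2% in the control, 15.7% at 6 h and 11.9% at 30 h, beside 0.680% to 1.92% of aCap-like barcodes. The summed immediate early genes had the same order over the libraries in gCap-like cells (10552, 15222 and 7905 CPM), and their part in the Itga5 result was not tested.

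Between classes, Itga5 was lowest in aCap-like cells, at 4.42, 7.77 and 2.94 CPM (log2 ratio to gCap-like cells -3.95 ± 0.46, n = 3 libraries, adjusted p = 3.83e-14). It was highest in vein-like cells, at 91.3, 117 and 89.7 CPM, each above the gCap-like value of its library (0.45 ± 0.05, adjusted p = 0.00105). Artery-like cells (62.4 to 69.4 CPM) did not pass the test (adjusted p = 0.521). In LEC-like cells (34.1 to 70.7 CPM, 14 to 25 UMIs) the difference was small and near the threshold (-0.55 ± 0.35, adjusted p = 0.0291), it was lost without the control library (adjusted p = 0.268), and it turned to 0.19 with barcodes of 300 genes or more.

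Itgav, the alpha subunit of the vitronectin receptors (ENSMUSG00000027087, chr2:83724397-83806916, plus strand), was lower at 30 h. Over all endothelial barcodes it measured 55.3 CPM in the control, 48.6 CPM at 6 h and 34.1 CPM at 30 h. The log2 ratio at 30 h was -0.70 (-0.77 to -0.63), and at 6 h it was -0.19 (-0.25 to -0.13). At 30 h the ratio was -0.66 (-0.76 to -0.57) in gCap-like cells and -0.93 (-1.12 to -0.74) in aCap-like cells. The intervals in artery-like (-0.55, -1.11 to 0.00) and LEC-like cells (-0.46, -1.11 to 0.20) reached 0. In vein-like cells Itgav measured 63.2, 41.1 and 45.2 CPM, with log2 ratios of -0.62 (-0.95 to -0.30) at 6 h and -0.48 (-0.79 to -0.18) at 30 h, but 1 control barcode held 47 of the 252 UMIs there. With the barcode richest in Itgav left out of each library, the vein-like ratios were -0.41 (-0.76 to -0.07) and -0.24 (-0.56 to 0.08), and with mesenchymal-positive barcodes left out both intervals held 0. Epithelial markers (858, 563 and 407 CPM) and red cell markers (3324, 1892 and 849 CPM) were ordered like Itgav over the whole endothelium, while Itgav in empty droplets was not (25.1, 31.7 and 22.8 CPM), and their part in the result was not tested.

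Itgav differed little between classes. LEC-like cells had more (112, 82.0 and 81.6 CPM) than gCap-like cells (54.3, 46.6 and 34.3 CPM), with a log2 ratio of 1.04 ± 0.22 (n = 3 libraries, adjusted p = 4.10e-04). The aCap-like, artery-like and vein-like classes did not pass the test (adjusted p = 0.137, 0.643 and 0.216), and their values overlapped those of gCap-like cells. Without the 30 h library the aCap-like class passed it (log2 difference 0.30, adjusted p = 0.0229).

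Itga9, the alpha subunit of a receptor for tenascin and Vcam1 that is required for lymphatic valves (ENSMUSG00000039115, chr9:118606690-118901003, plus strand), was by far highest in LEC-like cells. There it measured 513 CPM in the control, 732 CPM at 6 h and 565 CPM at 30 h. In gCap-like cells it measured 15.2, 15.5 and 17.0 CPM. The log2 ratio was 5.23 ± 0.28 (n = 3 libraries, adjusted p = 7.02e-16), a mean ratio of 37.5-fold. Artery-like cells (91.5, 65.5 and 64.7 CPM, 2.20 ± 0.35, adjusted p = 4.60e-09) and vein-like cells (87.8, 75.7 and 91.6 CPM, 2.42 ± 0.12, adjusted p = 1.88e-11) lay between and overlapped each other. Cells of the aCap-like class had the least (2.41 to 3.61 CPM, -2.47 ± 0.38, adjusted p = 2.59e-09). At 2000 UMIs, 55.1% to 60.9% of LEC-like barcodes held an Itga9 UMI, beside 0.40% to 0.84% of aCap-like barcodes. Unthinned, 52 of 55, 43 of 46 and 47 of 49 LEC-like barcodes held one. Among gCap-like barcodes these were 591 of 6516, 620 of 6294 and 514 of 4700. At equal depth (2000 UMIs), Itga9 and Itgb1 were found together in 1.91%, 2.13% and 2.25% of gCap-like barcodes. In LEC-like barcodes this was 38.2%, 39.1% and 34.7%.

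In the whole endothelium Itga9 was close to level (23.1 CPM in the control, 21.7 CPM at 6 h and 24.8 CPM at 30 h). In LEC-like cells the log2 ratio at 6 h was 0.51 (0.24 to 0.78), from 211 and 259 UMIs in 55 and 46 barcodes, and in artery-like cells it was -0.48 (-0.94 to -0.03), from 112 and 67 UMIs, of which 35.7% and 46.3% lay in 5 barcodes. The same artery-like sums held 428, 27.4 and 84.7 CPM of fibroblast markers and 159, 29.3 and 66.3 CPM of pericyte markers in the control, 6 h and 30 h libraries. Smooth muscle markers were instead highest at 30 h (80.9, 30.3 and 214 CPM). The part of these markers in the result was not tested. With mesenchymal-positive barcodes left out, the artery-like ratio was -0.39 (-1.01 to 0.22) at 6 h and -0.16 (-0.72 to 0.40) at 30 h. The share of artery-like barcodes with Itga9 was 14.9%, 10.3% and 10.7% at 2000 UMIs and 30.1%, 31.4% and 33.5% unthinned.

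Itga8, the nephronectin receptor subunit (ENSMUSG00000026768, chr2:12106632-12301922, minus strand), was near the limit of detection. Over all endothelial barcodes it measured 4.30 CPM in the control, 4.10 CPM at 6 h and 5.0 CPM at 30 h, from 375, 339 and 387 UMIs. Only 154, 120 and 192 barcodes held any, and a single barcode held 32, 45 and 25 UMIs. Barcodes with a mesenchymal marker UMI held 93.9%, 91.5% and 84.8% of the Itga8 UMIs, while they were 42.0%, 44.1% and 47.1% of the barcodes. In empty droplets Itga8 was higher (20.5, 23.0 and 31.5 CPM) than in the endothelial sums. For comparison, 45.9% to 50.5% of the Itga1 UMIs lay in barcodes with a mesenchymal marker. In gCap-like cells the log2 ratio of Itga8 at 6 h was -1.38 (-1.77 to -1.0), and with mesenchymal-positive barcodes left out it was 0.32. One control gCap-like barcode held 32 of the 210 UMIs there.

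The class calls of Itga8 rest on few molecules. It was lower in aCap-like cells (12, 3 and 11 UMIs, adjusted p = 2.67e-04) and vein-like cells (5, 3 and 5 UMIs, adjusted p = 0.0403) and higher in LEC-like cells (6, 4 and 4 UMIs in 2 or 3 barcodes per library, adjusted p = 0.0295). The last 2 calls were each lost without the control library (adjusted p = 0.220 and 0.0966) and without the 6 h library (adjusted p = 0.0822 and 0.186), and the vein-like call also without the 30 h library (adjusted p = 0.107) and with barcodes of 300 genes or more (adjusted p = 0.376). In artery-like cells it had 0, 1 and 10 UMIs and was not called (adjusted p = 0.634).

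Itgb1, the shared partner of 7 members here (ENSMUSG00000025809, chr8:128685654-128733200, plus strand), was the most even between classes. In the control it measured 635 CPM in gCap-like, 583 CPM in aCap-like, 604 CPM in artery-like, 627 CPM in vein-like and 526 CPM in LEC-like cells. LEC-like cells alone passed the test (526 to 579 CPM over the 3 libraries, -0.37 ± 0.14, n = 3 libraries, adjusted p = 2.60e-04). The adjusted p was 0.187 for aCap-like cells, 0.423 for artery-like cells and 0.996 for vein-like cells. With DESeq2, the aCap-like difference was called as well (adjusted p = 0.00387, log2 difference -0.15).

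Itgb1 was highest at 30 h in the whole endothelium. It measured 628 CPM in the control, 706 CPM at 6 h and 789 CPM at 30 h, with log2 ratios of 0.17 (0.15 to 0.19) and 0.33 (0.31 to 0.35), the latter a 1.26-fold difference that lay just past the limit and did not reach it as the mean of each barcode's own CPM (log2 ratio 0.32, count of 3 members in place of 4). The 30 h ratio was 0.35 (0.33 to 0.37) in gCap-like, 0.33 (0.29 to 0.38) in aCap-like, 0.40 (0.27 to 0.53) in artery-like and 0.30 (0.22 to 0.38) in vein-like cells. In LEC-like cells the interval held 0 (0.09, -0.18 to 0.35). The 4 blood vessel classes thus had the same order of libraries, control lowest and 30 h highest. The 7 general endothelial markers were also higher at 30 h than in the control in gCap-like (7277 and 8505 CPM) and aCap-like cells (9011 and 10940 CPM), but not in artery-like (7040 and 6679 CPM) or vein-like cells (5530 and 5357 CPM). Smooth muscle markers, control first, were 80.9 and 214 CPM in artery-like and 54.9 and 154 CPM in vein-like cells. In gCap-like cells they were 31.3 and 34.0 CPM, and in aCap-like cells 40.3 and 20.6 CPM. The part of these markers in the result was not tested.

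Itgb3, the beta subunit shared with the platelet fibrinogen receptor (ENSMUSG00000020689, chr11:104608000-104670476, plus strand), was highest in vein-like and LEC-like cells. In vein-like cells it measured 51.7 CPM in the control, 31.9 CPM at 6 h and 18.6 CPM at 30 h, from 206, 93 and 59 UMIs. In gCap-like cells it measured 2.12, 2.73 and 1.97 CPM. The log2 ratio of vein-like to gCap-like cells was 3.80 ± 0.72 (n = 3 libraries, adjusted p = 2.86e-10). LEC-like cells had 19.5, 33.9 and 32.2 CPM (3.62 ± 0.42, adjusted p = 1.33e-06), which overlapped the vein-like range. Cells of the aCap-like class had 0.40 to 0.59 CPM from 4 to 6 UMIs (adjusted p = 2.79e-04), and artery-like cells (3.90 to 4.90 CPM) did not pass the test (adjusted p = 0.178). Without the platelet gate the fitted log2 differences from gCap-like cells were smaller, at 2.87 in place of 3.93 in vein-like cells, 2.56 in place of 3.58 in LEC-like cells and -0.64 in place of -2.11 in aCap-like cells (adjusted p = 5.23e-09, 3.6e-05 and 0.0408).

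Vein-like Itgb3 was lower after injection, with a log2 ratio to the control of -0.70 (-1.07 to -0.34) at 6 h and -1.47 (-1.91 to -1.05) at 30 h. At 2000 UMIs, 8.46%, 6.06% and 3.29% of vein-like barcodes held an Itgb3 UMI, beside 0.00% to 0.19% of aCap-like barcodes. Without thinning, 135 of 402, 68 of 297 and 44 of 304 vein-like barcodes held one. Among gCap-like barcodes, which were less deep, these were 95 of 6516, 99 of 6294 and 73 of 4700. In the same vein-like sums the 8 vein markers summed to 6524, 5898 and 6214 CPM, and the 6 platelet markers to 5.02, 13 and 11.4 CPM. The other classes gave no ratio whose interval left out 0 at either time, and the 6 h ratio in gCap-like cells (0.36, -0.02 to 0.74) turned to -0.052 with 1 class marker more. Over all endothelial barcodes Itgb3 had 450, 390 and 262 UMIs, with log2 ratios of -0.13 at 6 h and -0.61 at 30 h. Under the alternatives these ranged from -0.25 to 0.01 and from -0.64 to -0.36.

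Itgb5, which pairs with Itgav (ENSMUSG00000022817, chr16:33829665-33949338, plus strand), was the member most concentrated in aCap-like cells. There it measured 195 CPM in the control, 168 CPM at 6 h and 232 CPM at 30 h, and in gCap-like cells 6.23, 5.12 and 6.41 CPM. The log2 ratio was 5.06 ± 0.10 (n = 3 libraries, adjusted p = 2.09e-17), a mean ratio of 33.4-fold. At 2000 UMIs, 29.3% to 36.1% of aCap-like barcodes held an Itgb5 UMI, beside 0.34% to 0.66% of vein-like barcodes. Unthinned, 786 of 995, 624 of 835 and 873 of 1034 aCap-like barcodes held one. Among gCap-like barcodes, which were less deep, these were 270 of 6516, 229 of 6294 and 212 of 4700. At equal depth (2000 UMIs), Itgav and Itgb5 were found together in 0.093%, 0.112% and 0.021% of gCap-like barcodes. In aCap-like barcodes this was 4.94%, 3.23% and 2.24%. Vein-like cells had less than gCap-like cells (2.26 to 3.79 CPM, 7 to 12 UMIs, -1.11 ± 0.35, adjusted p = 0.00227), a call lost without the control library (adjusted p = 0.0727). Artery-like cells (3.91 to 10.6 CPM) and LEC-like cells (0 to 2 UMIs) did not pass the test (adjusted p = 0.507 and 0.233).

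In the whole endothelium Itgb5 measured 38.2 CPM in the control, 29.4 CPM at 6 h and 51.1 CPM at 30 h, with log2 ratios of -0.38 (-0.45 to -0.30) and 0.42 (0.35 to 0.49). The share of aCap-like barcodes had the same order, at 9.22%, 8.30% and 11.8%. Within aCap-like cells the ratios were smaller, at -0.22 (-0.32 to -0.12) at 6 h and 0.25 (0.16 to 0.33) at 30 h. The 8 aCap markers had the same order in the same sums (6499, 5513 and 7810 CPM), and their part in the result was not tested.

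**Figure D4:**
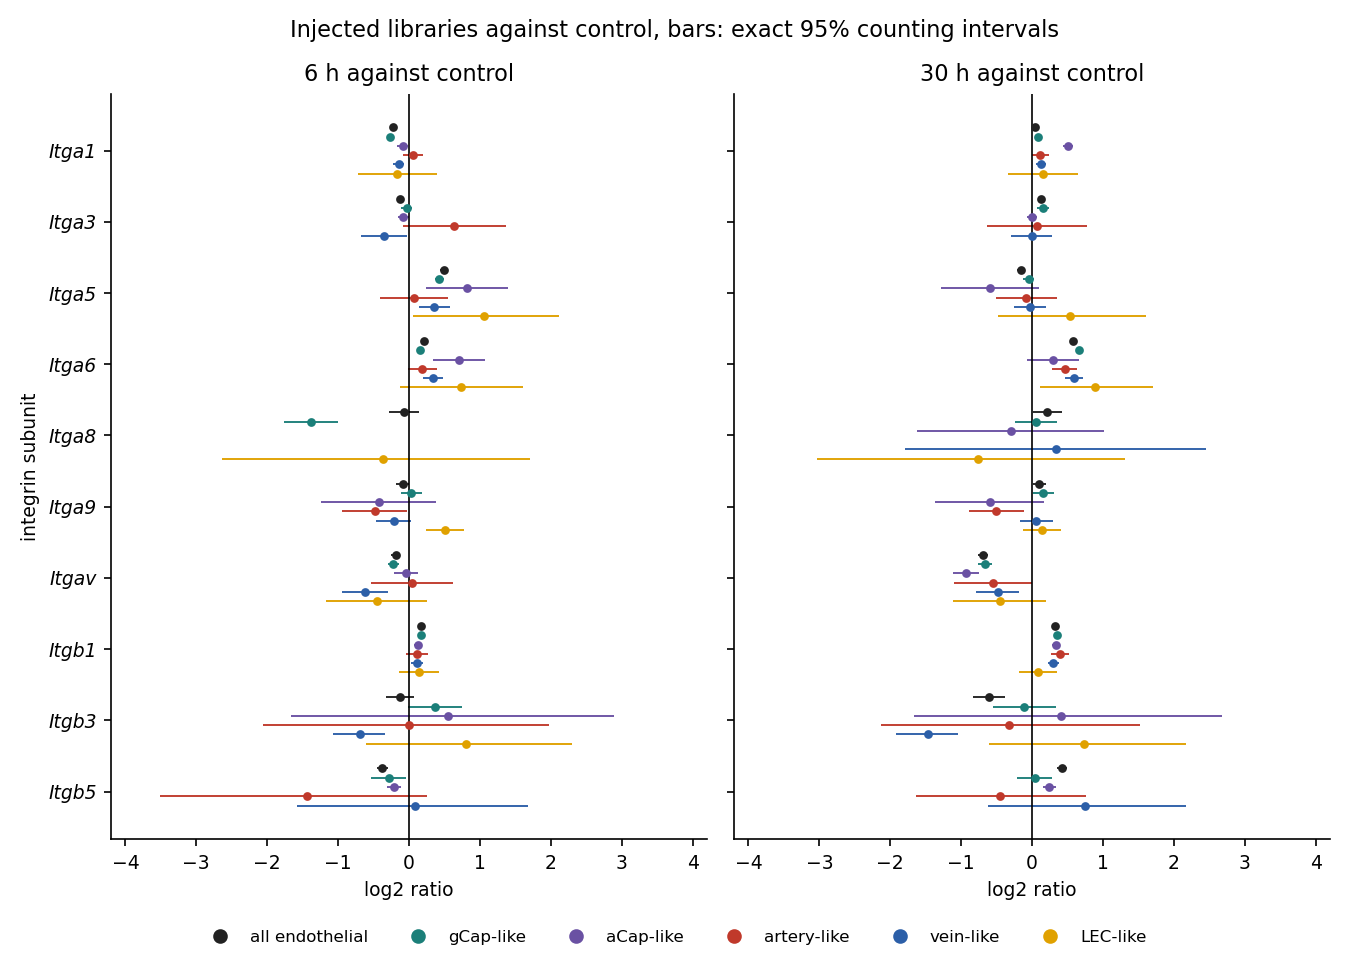
log2 ratio of each integrin subunit to the control (x axis) at 6 h (left) and 30 h (right), over all endothelial barcodes and in each class, with exact 95% counting intervals. No point is drawn where a sum held 3 UMIs or fewer. At 6 h Itga5 lies right of 0, and at 30 h Itga6 and Itgb1 lie right and Itgav left in most classes, while Itgb3 lies left in vein-like cells.

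**Figure D5:**
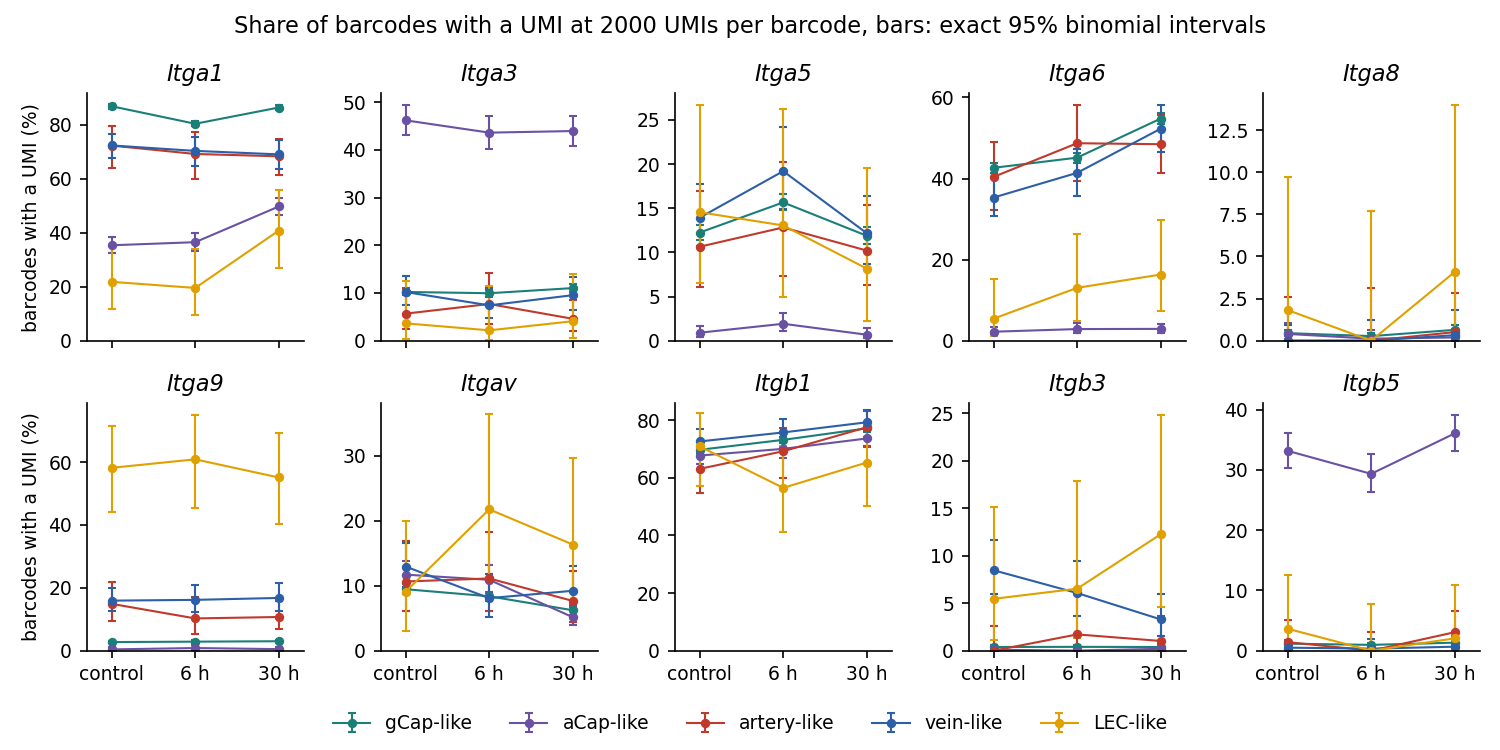
Percent of barcodes with at least 1 UMI of each integrin subunit (y axis) in the control, 6 h and 30 h libraries (x axis), by class, after thinning to 2000 UMIs per barcode, with exact 95% binomial intervals and lines that only join the points of a class. Itga3 and Itgb5 stand out in aCap-like cells, Itga9 in LEC-like cells, and the Itga6 share of gCap-like cells is 42.7%, 45.2% and 54.8%.

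Alpha and beta subunits of known receptors were also counted in the same barcode. At 2000 UMIs, Itga1 and Itgb1 were found together in 54.3% of control barcodes (53.3% to 55.2%), where the product of their separate shares was 54.2%. Itga6 and Itgb1 were found together in 24.4% of control barcodes, 28.4% at 6 h and 34.6% at 30 h, beside products of 24.8%, 28.1% and 34.0%. In aCap-like cells, Itga3 and Itgb1 were found together in 31.1%, 30.7% and 32.1% of barcodes, beside products of 31.3%, 30.5% and 32.4%. Itgav and Itgb5 were found together in 4.94%, 3.23% and 2.24% of aCap-like barcodes, beside products of 3.88%, 3.2% and 1.86%, each within the interval of the joint share. The joint share over all endothelial barcodes, which mix classes, was 0.745% (0.59% to 0.93%) in the control, 0.517% (0.39% to 0.68%) at 6 h and 0.403% (0.28% to 0.56%) at 30 h, beside products of 0.542%, 0.398% and 0.423%. The product lay below the interval in the control and within it at 6 h and 30 h. Itgav and Itgb3 were found together in at most 0.995% of vein-like barcodes, from 1 to 4 barcodes per library, beside products of 1.09%, 0.49% and 0.30%. In LEC-like cells their joint share was 1.82%, 0% and 6.12%, from at most 3 barcodes. Over all endothelial barcodes, which mix classes, it was 0.104%, 0.162% (0.093% to 0.263%, 16 barcodes) and 0.058%, beside products of 0.082%, 0.063% and 0.041%. The product lay below the interval at 6 h and within it in the control and at 30 h. In gCap-like cells the 6 h joint share was 0.080% (0.026% to 0.187%, 5 barcodes), beside a product of 0.033%. That product and the 6 h products of the other classes lay within their intervals. These shares depend on detection of single molecules and do not show which subunits pair as protein.

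Of the 16 other integrin subunit genes, Itga2 alone reached a mean of 5 CPM over the endothelial sums. Itga2, a collagen receptor subunit, measured 86.8 CPM in the control, 104 CPM at 6 h and 112 CPM at 30 h (log2 ratio at 30 h 0.37, 0.33 to 0.42). It was higher in aCap-like than in gCap-like cells (115 to 146 CPM against 88.9 to 117 CPM, 0.35 ± 0.02, adjusted p = 0.0014), and LEC-like cells had 1, 0 and 0 UMIs. The other 15 lay under this level, and 3 of them are given after their values were seen, as a description without the adjusted p of the class fit. Itgb4, the laminin receptor subunit that pairs with Itga6, measured 48.4, 84.6 and 77.7 CPM in vein-like cells, 27.0, 39.1 and 19.5 CPM in artery-like cells and 0.31 to 0.40 CPM in gCap-like cells. Itga4 and Itgb7, which pair as a leukocyte homing receptor, measured 9.33 and 4.21 CPM in control aCap-like cells, 8.94 and 4.12 CPM at 6 h and 19.96 and 9.63 CPM at 30 h, beside 1.21 to 2.21 and 0.81 to 1.32 CPM in gCap-like cells. Empty droplets held Itga4 at 5.7, 11.5 and 18.2 CPM and Itgb7 at 6.84, 4.32 and 4.17 CPM, from 3 to 48 UMIs per library, and the part of free RNA was not tested.

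Of 39 genes whose proteins link integrins to actin and signalling, 34 had a mean of at least 5 CPM. At 6 h, 4 were higher than the control by the limits above and 3 lower, or 11.8% and 8.82%, beside 7.21% and 6.64% of all genes. At 30 h 8 were higher and 0 lower, or 23.5% and 0%, beside 13.2% and 20.3% of all genes. The median log2 ratio was 0.03 at 6 h and 0.05 at 30 h. Flna, an actin crosslinker that binds integrin tails, measured 31.2 CPM in the control, 46.4 CPM at 6 h and 54.2 CPM at 30 h, and Actn1, another actin crosslinker, in the same order 54.8, 81.2 and 83.9 CPM. They had the largest positive ratios at both times among those that averaged 20 CPM or more, the limit for a gene named here. Lims2, a partner of integrin-linked kinase (193, 147 and 175 CPM), and Tns1, a tensin (246, 195 and 206 CPM), had the most negative ratios at 6 h. At 30 h these were Cd47, a membrane protein that associates with integrins (1091, 973 and 905 CPM), and Tns1 again. From 6 h to 30 h, 5 genes were higher and 1 lower, beside 13.6% and 17.9% of all genes. Among those that averaged 20 CPM or more, the talin gene Tln2 (18.5 to 33.2 CPM) and Rapgef1 (71.7 to 104 CPM) had the largest positive ratios and Bcar1 (51.2 to 38.8 CPM) and Rap1b (458 to 396 CPM) the most negative.

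Of 36 integrin ligand genes, 24 had a mean of at least 5 CPM. At 6 h, 3 were higher than the control by the limits above and 4 lower, or 12.5% and 16.7%, beside 7.21% and 6.64% of all genes. At 30 h 5 were higher and 5 lower, or 20.8% each, beside 13.2% and 20.3% of all genes. The median log2 ratio was -0.13 at 6 h and -0.03 at 30 h. Ccn1, a secreted matrix protein that binds Itgav receptors, measured 65.0 CPM in the control, 112 CPM at 6 h and 35.0 CPM at 30 h. Vcam1, a ligand of Itga9, measured 45.1, 63.1 and 35.2 CPM. Both were highest at 6 h and lowest at 30 h. The summed immediate early genes had the same order (10460, 14152 and 7767 CPM), and their part in these 2 results was not tested. Postn (28.0, 20.8 and 25.8 CPM) and Vwf (303, 232 and 288 CPM) had the most negative ratios at 6 h by the same limit on the mean. Spp1, which encodes osteopontin, measured 37.6, 31.7 and 11.4 CPM and was lowest at 30 h, with a log2 ratio of -1.73. Epithelial markers (858, 563 and 407 CPM) and red cell markers (3324, 1892 and 849 CPM) were ordered like Spp1, and their part was not tested. Emilin1 (25.9, 23.6 and 33.8 CPM) and the basement membrane collagen Col4a1 (751, 778 and 859 CPM) had the largest positive ratios at 30 h among ligands with a mean of at least 20 CPM. From 6 h to 30 h, 5 genes were higher and 7 lower, beside 13.6% and 17.9% of all genes.

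Between classes, of 28 ligand genes tested against gCap-like cells, 7 were higher and 17 lower in aCap-like cells, 14 higher and 5 lower in artery-like cells, 13 higher and 9 lower in vein-like cells, and 14 higher and 6 lower in LEC-like cells. The shares of all 12172 genes, higher and lower, were 26.3% and 27.2% in aCap-like, 10.1% each in artery-like, 15.5% and 14.5% in vein-like, and 18.3% and 20.3% in LEC-like cells, so the 25.0% of ligands higher in aCap-like cells was near the share of all genes. The median log2 difference was -1.37 in aCap-like cells and 0.70 in LEC-like cells. Of 36 adhesion machinery genes tested, 14 were higher and 13 lower in aCap-like cells, 9 and 8 in artery-like, 11 and 7 in vein-like and 11 and 11 in LEC-like cells, with medians between -0.10 and 0.12.

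Likeness was taken as Pearson's r of log2(CPM + 1) over the 15 class-by-library sums, among the 9129 genes that averaged 10 CPM or more, class markers left out. The sums share libraries and classes, so these are descriptions. The gene most like Itga1 was Gna14 (r = 0.983), that most like Itga3 was Gpr146 (r = 0.980), and that most like Itga5 was Spry2 (r = 0.979). Itga6 was closest to Tek (r = 0.978), followed by Txndc5 and Ptprb. Itga9 was closest to Ltbp3 (r = 0.986), Itgb3 to Serpine2 (r = 0.968), Itgb5 to Nhlrc2 (r = 0.970), Itgav to Hltf (r = 0.953), Itgb1 to Psme1 (r = 0.955) and Itga8 to Cyb5r3 (r = 0.900). Among the members, Itga5 and Itga6 were most alike (r = 0.910), followed by Itga9 and Itgb3 (r = 0.867) and by Itga3 and Itgb5 (r = 0.824). The most opposed were Itga3 and Itga9 (r = -0.950).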

How the data were processed

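Libraries of sorted mouse lung ECs were grouped by the treatment in the labels. The authors deposited unfiltered UMI counts per gene and barcode, which per the file headers were made with Cell Ranger 7.2.0. An earlier release is given in the methods, and which one made these files was not settled. The processing notes name mm10. Whether intronic reads were counted, and with which strand setting, is not given in the sources used here. The libraries held 140601123, 132566934 and 124085451 UMIs in the control, 6 h and 30 h libraries. Gene positions are from GENCODE M21, whose annotation held 32158 of the 32285 gene IDs. Itga1, Itga6, Itga8, Itga9 and Itgav overlap genes on the opposite strand, whose reads may not be told apart.

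Barcodes were gated as stated in the report and UMIs summed per class and library (Python 3.11.15, scipy 1.17.1). A class needed UMIs of at least 5 of its 8 markers (4 for artery-like), and other lists had to stay below set limits. These limits were set after the marker counts had been seen, and no member gene was used. Doublets were left in, and removal by Scrublet (scanpy 1.11.5) was an alternative. Intervals are exact at 95%: Poisson for sums, conditional binomial for ratios and Clopper-Pearson for shares. Empty droplets were barcodes with 10 to 100 UMIs.

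Classes were compared with edgeR 4.0.16 (R 4.3.3), using filterByExpr, TMM factors, glmQLFit and glmQLFTest, with DESeq2 1.42.0 as an alternative. The test was tested on simulated data with 2 models of the spread. All classes were simulated from the gCap-like profile, with 100 genes changed 2-fold and 100 changed 1.5-fold in the aCap-like sums. In the data, 26.3% of genes were called higher and 27.2% lower in that comparison, far more than were changed. Calls in the artery-like, vein-like and LEC-like classes were not checked in this way. Where the simulated spread followed the average trend, 4.12% of calls between aCap-like and gCap-like sums were false, within the nominal level. Where each gene kept its own estimated spread, 12.6% of calls were false with the fit used. The share exceeded the nominal level under all 4 fitting options tried, so calls near the threshold are less certain than their adjusted p. The model with the trend was added after the first real calls had been seen, and the fit was left unchanged.

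All 10 members were named. Other integrin subunits were named at a mean of at least 5 CPM (Itga4, Itgb4 and Itgb7 fall outside this rule), and adhesion machinery and ligand genes as the 2 largest ratios each way per contrast at a mean of at least 20 CPM. The members and lists were chosen with earlier results of these data known.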

Additional observations from a re-analysis of the deposited data

Results flagged for a closer look

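Itga9 had opposite directions in different classes, and the difference between the classes was not tested. At 6 h its log2 ratio to the control was 0.51 in LEC-like cells and -0.48 in artery-like cells, and at 30 h it was 0.16 in gCap-like cells and -0.50 in artery-like cells, with every counting interval leaving out 0. The gCap-like interval began at 0.0086, and with barcodes of 300 genes or more that ratio was 0.0056. The artery-like control sum also held more fibroblast markers (428 CPM, against 27.4 CPM at 6 h and 84.7 CPM at 30 h) and pericyte markers (159 CPM, against 29.3 and 66.3 CPM). Smooth muscle markers had another order in artery-like cells. They peaked at 30 h (214 CPM), while the control sum reached 80.9 CPM and the 6 h sum 30.3 CPM. With mesenchymal-positive barcodes left out, the artery-like ratios were -0.39 (-1.01 to 0.22) at 6 h and -0.16 (-0.72 to 0.40) at 30 h, with intervals that held 0, and the unthinned share of artery-like barcodes with Itga9 was 30.1%, 31.4% and 33.5%.

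Signal was also found outside the endothelial barcodes. In empty droplets the log2 ratio of Itga6 to the control was 0.60 at 6 h and 0.86 at 30 h, and that of Itgb3 was 1.92 at 6 h, from 4 UMIs in the control and 12 at 6 h. The melanoma-like barcodes of the 6 h library, 17 in number and with 0 in the other libraries, held 535 CPM of Itgb1 (101 UMIs), 68.9 CPM of Itgav (13 UMIs) and 42.4 CPM of Itgb5 (8 UMIs), each above the limit of 3 UMIs that a count of 0 allows.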

How the results depend on the processing

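Each count was recomputed under other barcode gates, scalings and tests. Counts of members past the fold limit stayed within 1.5 times the reported count in 46 of 49 alternatives and counts called between classes in 56 of 59. At 6 h over all endothelial barcodes, 1 member was past the fold with mesenchymal-positive barcodes left out, and in gCap-like cells 2 were with at least 300 genes or with 1 class marker fewer. With at least 300 genes, 5 members were called in artery-like cells. Without the library block, 4 were called in vein-like cells, and leaving out each library gave 4 to 6. Of 40 class differences and 122 ratios between libraries, 7 and 34 changed sign under at least 1 alternative. Among those past the fold limit, or called in either fit, the sign turned for Itga8 in gCap-like cells at 6 h without mesenchymal-positive barcodes (0.32), for Itgb3 there with 1 class marker more (-0.052), for Itga8 in artery-like cells with at least 300 genes (3.09) or 1 class marker fewer (2.24), and for Itga5 in LEC-like cells with at least 300 genes (0.19). Ratios to the control in the smaller classes were recomputed under the same gates, chosen after seeing the data, and turned for Itga5 in aCap-like cells at 30 h without mesenchymal-positive barcodes (0.11) and in LEC-like cells at 30 h with at least 300 genes (-0.10), for Itga9 in aCap-like cells at 6 h with at least 5 UMIs of Pecam1 and Cdh5 (0.10) or 1 class marker more (0.11) and at 30 h with at least 300 genes (0.46), for Itgb3 in aCap-like cells with 1 class marker fewer (-0.035 at 6 h, -0.15 at 30 h) or no platelet gate (-0.46 at 30 h), in artery-like cells at 30 h with no platelet gate (0.53) and in LEC-like cells with at least 300 genes (-0.092 at 6 h, -0.20 at 30 h), and for Itgb5 at 30 h in artery-like cells with at least 300 genes (0.063), at least 5 UMIs of Pecam1 and Cdh5 (0.053) or doublets removed (0.059) and in vein-like cells with 1 class marker more (-0.074). The cause was not tested. Leaving out of each library the barcode richest in a gene, also chosen after seeing the data, turned no ratio past the fold limit. Leaving the LEC-like sums out of the fit, an alternative chosen after seeing the data, moved no count. No scaling shifted the median of all genes by more than 0.1 on the log2 scale. No paired analysis between the groups was possible because each group held 1 library, while the class tests took the library as a block. Depth limits Itga8, Itgb3 outside vein-like cells, and LEC-like and artery-like values.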
